A study of Homo sapiens with 61 samples.

Results

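The resting distribution of histone H3 lysine 4 trimethylation (H3K4me3) over the promoters of wild-type (WT) U2OS cells was described from 3 replicate ChIP-seq peak lists. U2OS is an established human osteosarcoma cell line. A promoter was the window of 2 kb on either side of a protein-coding transcription start site, and it was called marked when at least 1 listed H3K4me3 peak touched that window in all 3 lists and unmarked when none did in any. Of 19962 protein-coding promoters, 13571 (68%) were marked in all 3 lists and 5593 (28%) had no peak in any. A further 339 promoters (1.7%) had a peak in 2 lists and 459 (2.3%) in 1 list.

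The 3 lists came from WT cells that received no ultraviolet light (UV). The series also holds H3K4me3 lists from an ASH1L-/- U2OS line, in which CRISPR/Cas9 deletions in exon 2 and in exons 11 and 12 removed the histone methyltransferase ASH1L and which was grown from single colonies, so that it stands for a clone. Both lines were also profiled 1 h and 3 h after UV-C at 20 J/m2, giving 18 H3K4me3 lists in 6 groups of 3, and a further antibody against the damage sensor XPC was used in the same cells. Chromatin was crosslinked with formaldehyde before immunoprecipitation, and the labels call the replicates of each group biological.

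Trimethylation of H3K4 is laid down by the SET1 and MLL (KMT2) complexes and is found at the promoters of active and poised genes. CXXC domain proteins in or near these complexes bind unmethylated CpG dinucleotides, so that CpG islands are the main sites of the mark. The mark usually flanks the nucleosome-depleted start site, with the nucleosomes downstream of it carrying more than those upstream. Very broad domains are known at genes that define a cell's identity, and genes of other lineages usually lack the mark or carry little of it.

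The promoters below are shown because they show promoters with many and with few CG dinucleotides in both classes. Each is 300 bases long, from 250 bases before to 50 bases after the start site, read 5′ to 3′ on the strand of the gene from RefSeq on build GRCh38.p14, with each CG dinucleotide in capitals. LMCD1 (chr3:8501573-8501872, plus strand) and the glycolytic enzyme gene ENO1 (chr1:8878637-8878936, minus strand) were marked and hold 29 and 32 CG. The intermediate filament gene VIM (chr10:17227991-17228290, plus strand) and the osteoblast regulator RUNX2 (chr6:45328080-45328379, plus strand) were marked with 10 and 2 CG. The cell cycle inhibitor gene CDKN2A (chr9:21974808-21975107, minus strand) and the telomerase gene TERT (chr5:1295019-1295318, minus strand) were unmarked with 26 and 36 CG. The leukocyte gene PTPRC (chr1:198638790-198639089, plus strand) and the olfactory receptor gene OR10A2 (chr11:6862807-6863106, plus strand) were unmarked with 1 CG each.
LMCD1: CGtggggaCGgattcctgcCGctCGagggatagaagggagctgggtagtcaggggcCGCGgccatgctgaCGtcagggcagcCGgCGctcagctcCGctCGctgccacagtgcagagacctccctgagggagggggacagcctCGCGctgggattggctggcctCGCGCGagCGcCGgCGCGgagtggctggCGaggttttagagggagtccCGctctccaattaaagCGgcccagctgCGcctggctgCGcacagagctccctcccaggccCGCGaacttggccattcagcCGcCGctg
ENO1: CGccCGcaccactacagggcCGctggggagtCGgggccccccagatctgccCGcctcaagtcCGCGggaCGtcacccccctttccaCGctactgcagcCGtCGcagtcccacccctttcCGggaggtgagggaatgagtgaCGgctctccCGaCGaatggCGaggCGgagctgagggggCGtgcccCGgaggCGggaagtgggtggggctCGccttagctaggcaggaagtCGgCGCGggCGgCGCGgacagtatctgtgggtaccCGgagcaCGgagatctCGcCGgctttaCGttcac
VIM: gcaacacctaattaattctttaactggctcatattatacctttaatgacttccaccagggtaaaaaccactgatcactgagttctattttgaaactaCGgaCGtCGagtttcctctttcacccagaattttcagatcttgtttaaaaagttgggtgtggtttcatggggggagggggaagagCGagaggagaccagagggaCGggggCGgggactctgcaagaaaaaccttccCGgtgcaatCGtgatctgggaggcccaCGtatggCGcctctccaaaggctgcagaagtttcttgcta
RUNX2: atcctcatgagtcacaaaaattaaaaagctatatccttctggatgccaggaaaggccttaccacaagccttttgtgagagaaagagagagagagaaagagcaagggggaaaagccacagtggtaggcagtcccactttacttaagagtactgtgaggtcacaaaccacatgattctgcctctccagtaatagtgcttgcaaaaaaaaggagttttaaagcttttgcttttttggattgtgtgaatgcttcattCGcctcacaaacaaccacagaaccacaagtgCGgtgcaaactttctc
CDKN2A: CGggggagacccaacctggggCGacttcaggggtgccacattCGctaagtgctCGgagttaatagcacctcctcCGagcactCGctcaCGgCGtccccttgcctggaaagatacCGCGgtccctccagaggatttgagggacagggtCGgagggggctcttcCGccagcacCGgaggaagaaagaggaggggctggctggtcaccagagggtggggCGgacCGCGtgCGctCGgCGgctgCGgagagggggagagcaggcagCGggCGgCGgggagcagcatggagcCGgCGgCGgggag
TERT: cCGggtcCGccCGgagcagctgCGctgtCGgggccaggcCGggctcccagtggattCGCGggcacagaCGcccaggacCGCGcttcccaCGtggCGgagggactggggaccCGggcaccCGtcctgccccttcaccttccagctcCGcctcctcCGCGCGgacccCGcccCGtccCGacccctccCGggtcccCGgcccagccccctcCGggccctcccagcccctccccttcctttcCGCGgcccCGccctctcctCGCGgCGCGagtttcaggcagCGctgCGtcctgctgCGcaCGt
PTPRC: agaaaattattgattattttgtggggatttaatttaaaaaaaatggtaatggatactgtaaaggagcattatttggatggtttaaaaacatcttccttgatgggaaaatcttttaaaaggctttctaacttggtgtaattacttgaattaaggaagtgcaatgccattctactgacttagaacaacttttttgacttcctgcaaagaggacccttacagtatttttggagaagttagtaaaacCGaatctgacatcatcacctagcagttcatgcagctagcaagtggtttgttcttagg
OR10A2: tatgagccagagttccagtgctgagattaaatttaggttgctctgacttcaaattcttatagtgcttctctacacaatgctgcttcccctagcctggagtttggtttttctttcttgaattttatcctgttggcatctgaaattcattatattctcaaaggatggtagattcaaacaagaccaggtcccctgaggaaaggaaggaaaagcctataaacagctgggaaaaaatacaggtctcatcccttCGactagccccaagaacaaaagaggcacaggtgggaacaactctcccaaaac

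The 3 lists held 91762, 111951 and 122482 peaks, covering 70.1, 76.9 and 93.3 Mb. The read depth behind them is not in the lists, and no interval that needs it is given. Replicate 3 had the most peaks and the widest cover, and 300 of the 459 promoters with a peak in 1 list had it there, against 79 in replicate 1 and 80 in replicate 2. Promoter windows were touched by 17.3%, 15.9% and 13.7% of the peaks, and those peaks held 46.6%, 40.2% and 38.8% of the covered bases. Peaks at promoters had a median length of 1895, 1465 and 1928.5 bp, and peaks elsewhere 327, 329 and 348 bp. The median fold enrichment over input at the summit was 8.60, 6.17 and 8.87 at promoters and 2.97, 2.79 and 3.03 elsewhere. Promoter peaks also recurred more often, as 92.2% ± 4.34 (SD, n = 3 libraries) of them overlapped a peak in both other lists, against 39.8% ± 8.30 of peaks elsewhere. At a fold of 5 or more the shares were 99.9% and 97.8%. At a fold below 3 they were 44.5% ± 29.1 and 23.9% ± 8.55, so that the lists differed mostly in their weak peaks.

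The class of a promoter was largely the same in the other libraries of the series. Of the 13571 marked promoters, 13339 (98.3%) had a peak in each of the other 15 H3K4me3 lists, and each of those lists held 99% to 100% of the marked set. Of the 5593 unmarked promoters, 4673 (83.6%) had no peak in any of the 15 lists and 4 had one in all 15. Single lists held 2.15% to 5.56% of the unmarked set. The distance to the nearest peak from an unmarked start site had a median of 19.2, 19.0 and 16.2 kb (mean 18.2 ± 1.69 kb). For 672 unmarked promoters (12%) that peak lay more than 50 kb away in all 3 lists. Just outside the window, 111 unmarked promoters had a peak at 2 to 3 kb in all 3 lists. Just inside the rule, 12 marked promoters had fewer than 200 bases under peaks in each list and 653 had a summit fold below 5 in all 3. A single start site per gene was used, and 380 unmarked genes (6.79%) had another annotated start site that was marked in all 3 lists.

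Marked and unmarked promoters differed widely in CpG content. Over the 1 kb centred on the start site, the ratio of observed to expected CpG dinucleotides had a median of 0.786 in marked and 0.272 in unmarked promoters. Promoters were split into 10 equal bins of this ratio. The share marked was 7.96% in the lowest bin, 15.2% in the next, 35.6% in the third and 75.4% in the fourth. It then rose only from 87.0% to a highest value of 93.1%, so that most of the change fell between ratios of 0.307 and 0.663. Of 11985 CpG-rich promoters (ratio of at least 0.6 and at least 55% GC) 90.1% were marked, and of the other 7977 promoters 34.8%. Promoters that missed either limit, called CpG-poor here, made up 2772 of the marked set. Their median peak fold was 9.59 against 9.30 at CpG-rich marked promoters, and their median domain width was 2.2 kb against 2.76 kb. By the ratio alone fold was lower at the low end. From the lowest bin up, the median fold of marked promoters was 5.97, 6.66 and 8.13, and 9.20 to 9.90 in the remaining bins. The 944 CpG-rich promoters without a peak were 7.88% of all CpG-rich promoters.

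**Figure D1:**
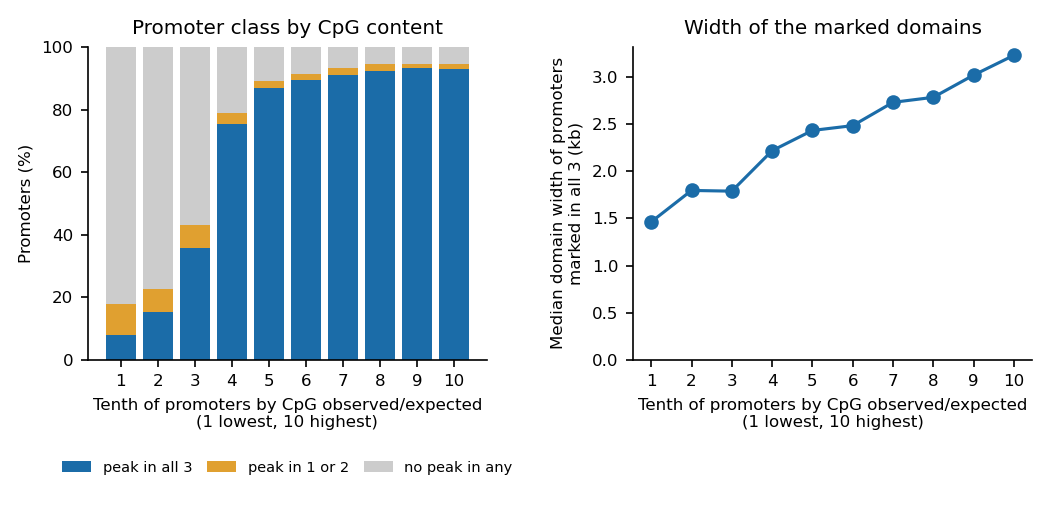
Left, percent of promoters with a peak in all 3 lists, in 1 or 2, or in none (stacked bars), and right, median domain width of marked promoters in kb, in 10 equal bins of the CpG observed over expected ratio around the start site (x axes). The share marked climbs from 7.96% in the lowest bin to 75.4% in the fourth and then levels off near 93.1%, and the median width rises from 1.46 kb in the lowest to 3.23 kb in the highest bin.

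RefSeq promoter sequences starting within 100 bases of the start site used here were matched for 14657 promoters (73.4%). A 300-base promoter held a median of 28 CG dinucleotides in the marked class (quartiles 21 and 36) and 5 in the unmarked class (quartiles 2 and 13), against 24 over all. Over these 300 bases the VIM promoter printed above, with 10 CG, and the RUNX2 promoter, with 2, lie below the lower quartile of their class. CpG-rich promoters held 31 CG when marked and 28 when unmarked, and the CDKN2A promoter with 26 and the TERT promoter with 36 are of the latter kind. No CG at all was found in 5.50% of unmarked and 0.155% of marked promoters.

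Short motifs were counted on both strands of the same 300-base windows. TATAAA, the core of the TATA box, was in 9.46% of all promoters, 5.01% of marked and 20.4% of unmarked ones, the OR10A2 promoter among them. GGGCGG, the core of the GC box bound by SP1 family factors, was in 62.6% of all, 75.5% of marked and 30.3% of unmarked promoters. Among CpG-rich promoters it was about as frequent in marked (82.7%) as in unmarked ones (81.1%), but among CpG-poor promoters it was in 46.4% of marked and 19.6% of unmarked. CCGGAAG, the core bound by ETS factors, was in 15.0% of all promoters and differed also among CpG-rich promoters, at 20.4% of marked and 6.81% of unmarked. Among CpG-poor promoters it was in 18.2% of marked and 2.31% of unmarked. ATGGCGG, part of the YY1 site, was in 8.36% of all, 11% of marked and 1.85% of unmarked promoters. CCAAT, bound by NF-Y, hardly differed, at 36.9% and 37.3%. A match describes letters in these windows and not binding.

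Domain shape was measured after peaks closer than 500 bases were joined. The domain of a promoter was the joined interval holding its start site or, failing that, the nearest one touching the window. The start site lay inside the domain in all 3 lists at 12115 marked promoters (89.3%). At these, the domain reached a median of 0.912, 0.857 and 0.963 kb upstream (mean 0.911 ± 0.0530 kb, n = 3) and 1.62, 1.58 and 1.80 kb downstream (1.66 ± 0.117 kb). The lowest downstream value was above the highest upstream value. The median difference per promoter was 0.739 ± 0.0508 kb, and the downstream side was the longer at 79.4% of promoters. The exact two-sided sign-flip test over the 3 libraries gave p = 0.25, which is the smallest that 3 libraries allow (0.36 after Benjamini-Hochberg adjustment over 6 tests). The downstream side was longer in the median of each of the 18 H3K4me3 libraries. The summit of the strongest peak lay a median of 315 ± 31.2 bp downstream of the start site, and downstream of it at 80.7% of promoters.

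Where no other protein-coding start site lay within 10 kb, the asymmetry was greater. At 8193 such isolated promoters the upstream extent was 0.823 ± 0.0490 kb, the downstream extent 1.74 ± 0.113 kb, and the downstream side was longer at 87.9%. Over all 9214 isolated marked promoters, 33.4% ± 3.45 had a peak over the position 1 kb upstream and 81.2% ± 2.26 over the position 1 kb downstream. At 2 kb the shares were 5.90% ± 1.07 and 37.7% ± 4.28. Cover dipped just before the start site, being 79.9% ± 5.30 at 300 bp upstream, 70.9% ± 11.2 at 100 bp upstream, 85.7% ± 8.76 at the start site and 93.3% ± 2.73 at 100 bp downstream.

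**Figure D2:**
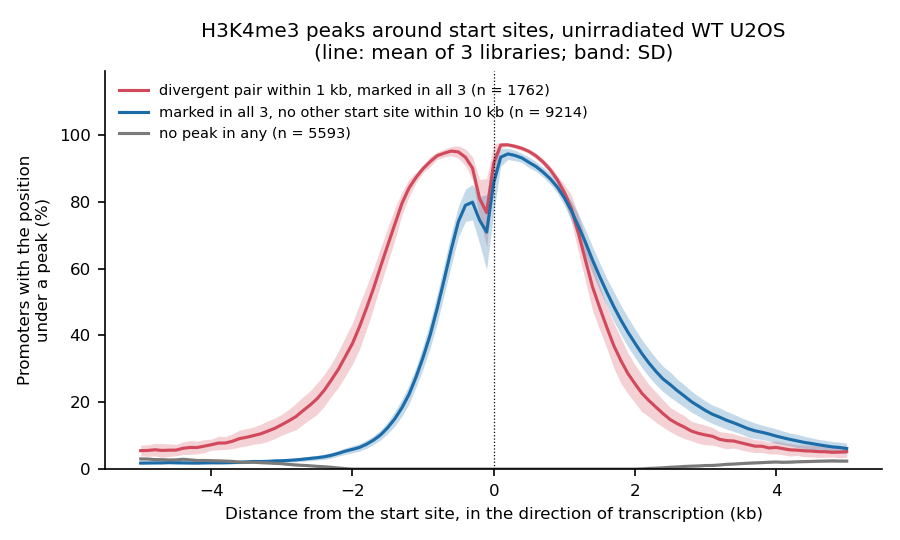
Percent of promoters with the position under an H3K4me3 peak (y axis) by distance from the start site in kb (x axis, negative upstream), as the mean of the 3 WT libraries with the SD as a band, for isolated marked promoters, marked divergent pairs and unmarked promoters. Isolated promoters fall to 5.90% at 2 kb upstream but 37.7% at 2 kb downstream, divergent pairs are covered on both sides, and both dip near 100 bp upstream.

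Divergent pairs, in which the neighbouring gene starts within 1 kb on the opposite strand and runs the other way, had another shape. Of 1822 such promoters 96.7% were marked, against 65.0% of 14183 isolated promoters. The window of each partner holds the start site of the other, so that 1 peak can mark both, and the part of this in the share was not tested. Their median domain was 3.35 kb wide, against 2.55 kb at isolated promoters. The upstream extent of 1.79 ± 0.112 kb exceeded the downstream extent of 1.52 ± 0.115 kb, and the upstream side of such a promoter includes the start of its partner. At 1 kb upstream 89.9% ± 1.17 of these promoters were under a peak, and at 100 bp upstream 76.7% ± 10.2. The partners of a pair share 1 domain and are not separate observations: in the 3 lists, the 13571 marked promoters lay in 12021, 12051 and 12004 distinct domains.

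The length of the first exon moved with the downstream edge and hardly with the upstream edge at isolated promoters. With a first exon under 100 bp the median domain reached 1.53 ± 0.111 kb downstream (1599 promoters), with 200 to 400 bp 1.83 kb (2314 promoters), and with 800 to 1600 bp 2.56 ± 0.195 kb (360 promoters). The upstream extent in the same classes was 0.817, 0.819 and 0.888 kb. The summit moved from 313 ± 42.6 to 452 ± 10.5 bp downstream. The trend did not run on, because first exons of 1600 bp or more (202 promoters) had 2.28 ± 0.160 kb and a summit at 354 ± 41.9 bp.

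The median width of a marked domain was 2.60, 2.47 and 2.85 kb in the 3 lists (2.64 ± 0.192 kb), widest in replicate 3. By the mean over libraries, the middle 50% of promoters lay between 1.89 and 3.72 kb, 5% were below 0.939 kb and 5% above 6.38 kb. The median summit fold was 9.35, with quartiles of 7.40 and 11.7 and a range of 1.96 to 24.4. Fold rose with width at the narrow end, from a median of 3.20 at 157 domains under 0.5 kb to 7.66 at 1 to 2 kb, and then slowly to 12.2 at 98 domains of 10 kb or more. Those 98 reached a median of 9.07 kb downstream and 2.39 kb upstream. Across the 13571 promoters, which share libraries and input, width and fold had a Pearson r of 0.439 and a Spearman rho of 0.514, and width and CpG ratio 0.209 and 0.272. Widths ranked promoters alike between libraries (Spearman 0.911 to 0.939), and folds less so (0.769 to 0.795).

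**Figure D3:**
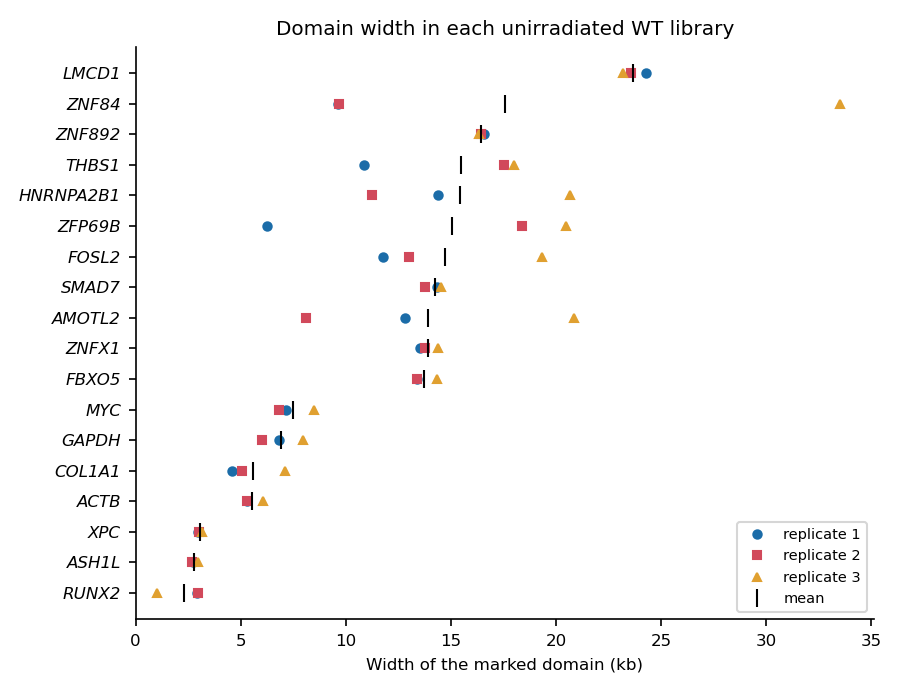
Width of the marked domain in kb (x axis) in each of the 3 WT libraries (points) with their mean (bar) for 11 of the 12 widest promoters and 7 reference genes (y axis). LMCD1 lies between 23.2 and 24.3 kb in all 3 libraries, ZNF84 near 9.62 kb in 2 libraries and at 33.5 kb in replicate 3, and RUNX2 at 1.01 kb in replicate 3 and near 2.93 kb in the other two.

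The widest domain by mean belonged to LMCD1, a LIM domain protein known as a co-regulator of transcription in muscle and heart. It measured 24.3, 23.6 and 23.2 kb (23.7 ± 0.540 kb; summit fold 17.5 ± 3.32) and ran 22.2 kb into the gene and 1.47 kb upstream of the start site, whose promoter printed above holds 29 CG. In replicate 1 it covered chr3:8500258-8524529, and the 3 libraries hardly differed. ZNF892 had 16.6, 16.4 and 16.4 kb. The TGF-β pathway inhibitor SMAD7 had 14.4, 13.8 and 14.6 kb. ZNFX1 had 13.5, 13.8 and 14.4 kb, of which a mean of 11.2 kb lay upstream of its start. FBXO5, an inhibitor of the anaphase-promoting complex, had 13.4, 13.4 and 14.3 kb. These domains were alike in the 3 libraries.

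Other domains among the 12 widest, counted with 1 gene per domain, were long in some libraries only. ZNF84 had 9.62, 9.68 and 33.5 kb, so that its place rested on replicate 3. ZFP69B had 6.27, 18.4 and 20.5 kb. The matrix glycoprotein gene THBS1 had 10.9, 17.5 and 18 kb, lowest in replicate 1. HNRNPA2B1, an RNA-binding protein, had 14.4, 11.3 and 20.7 kb, and the AP-1 subunit FOSL2 had 11.8, 13.0 and 19.3 kb. AMOTL2, an angiomotin family member, had 12.8, 8.10 and 20.8 kb. The mean width of these 6 genes was thus set by 1 or 2 libraries.

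Height and width picked different genes. The highest mean fold was at MED6, a Mediator subunit, with 23.8, 19.4 and 30.0 (24.4 ± 5.36) in a domain of 2.75 ± 0.0704 kb, close to the median width. The calmodulin gene CALM2 had folds of 23.4, 21.7 and 26.3, and HNRNPA1 20.0, 20.5 and 30.3. EIF4A2, a translation initiation helicase, ranged from 12.6 to 32.2. The other 4 of the highest 8 were TIMM21, MRPL3, AREL1 and the unnamed gene ENSG00000259060. At the other end, the narrowest domains of the marked class were MPZL2, AGER, GPR89B, ANXA2R, SGK1 and ENSG00000267360, all near the smallest peak length in the lists, which was 195 bp in replicates 1 and 2.

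Genes of basic cell function were nearly all marked, against 68% of all promoters and 90.1% of CpG-rich ones. The promoters were CpG-rich at 31 of 32 housekeeping, 63 of 77 cytosolic ribosomal, 49 of 78 mitochondrial ribosomal and 25 of 37 complex I genes. The part of CpG content in these shares was not tested. All 32 housekeeping genes of metabolism and cytoskeleton were marked, with a median width of 5.24 kb against 2.65 kb over all marked promoters. ENO1 had 7.37, 8.67 and 10.6 kb, the chaperone HSPA8 8.44, 6.53 and 9.79 kb, GAPDH 6.81, 6.04 and 7.98 kb and the actin gene ACTB 5.32, 5.29 and 6.08 kb. Each of these was widest in replicate 3. All 77 cytosolic ribosomal protein genes were marked with a median of 4.82 kb, and 31 of them exceeded 5.15 kb, the width passed by 10% of marked promoters. RPL23A had 8.47, 13.6 and 14.7 kb and RPL3 8.70, 8.60 and 9.28 kb. Mitochondrial ribosomal proteins were marked as completely (77 of 78) but had the more ordinary median of 2.47 kb, and all 37 complex I genes had 2.88 kb.

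The exceptions in these lists were few. MRPL23 had no peak within 2 kb, and its nearest peak lay 3.36, 2.87 and 2.98 kb away. Of 39 proteasome genes 37 were marked (median 3.13 kb), and the unmarked ones were PSMA8 and PSMB11, known as the testis and thymus forms of subunits whose common forms were marked. All 33 genes of nucleotide excision repair and H3K4 methylation were marked, with a median of 3.28 kb. Of their promoters 32 were CpG-rich, and of all CpG-rich promoters 90.1% were marked. ASH1L had 2.71, 2.67 and 2.95 kb (summit fold 10.4 ± 2.85) and XPC 2.96, 3.03 and 3.18 kb (16.8 ± 4.74), both of ordinary width. Among the methyltransferases SETD1B reached 10.3, 9.92 and 11.4 kb and KMT2A 6.16, 5.98 and 7.84 kb.

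Among the 8 lineage lists, that of mesenchymal and osteoblast genes had the largest share marked. Of its 50 genes 37 were marked (74%, near the 68% of all promoters), with a median width of 4.08 kb, and 13 exceeded 5.15 kb. VIM had 10.1, 10.3 and 11 kb (10.5 ± 0.479 kb), of which 8.98 kb lay downstream. Its 300-base promoter printed above holds 10 CG, but the 1 kb around its start site has a CpG ratio of 0.792, and it was not counted as CpG-rich because that stretch has 52.8% GC. The bone morphogen gene BMP4 had 7.26, 6.83 and 9.37 kb and the cartilage regulator SOX9 7.17, 8.02 and 7.27 kb. COL1A1, the main collagen of bone, had 4.57, 5.05 and 7.12 kb, and SPARC, a bone matrix protein, a mean of 5.73 ± 0.831 kb. RUNX2, the early osteoblast regulator, had 2.93, 2.97 and 1.01 kb, with the short value in replicate 3, at the start site of its CpG-poor promoter.

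The 12 unmarked members of that list included SP7 (osterix), ALPL, the alkaline phosphatase, and the bone matrix genes BGLAP and IBSP. TWIST1, DLX5, DLX6, COL1A2, COL6A3, NT5E, TGFBI and POSTN were the others. The nearest peak to SP7 lay 8.16, 8.24 and 8.16 kb away, where another annotated start site of the gene was marked. For TWIST1 it was 4.78, 4.75 and 4.62 kb away. For DLX5 it was 2.67, 2.46 and 2.52 kb, just outside the window. FAP had a peak in 1 list. The markers RUNX2, COL1A1 and SPARC were thus marked, as was the bone matrix gene SPP1, and SP7, ALPL, BGLAP, IBSP, TWIST1 and COL1A2 were not. The list as chosen did not separate early from late genes.

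Genes of other lineages were marked less often than the 68% over all promoters, and with narrow domains. Of 40 blood cell genes 6 were marked (median width 1.49 kb) and 30 had no peak. PTPRC, which encodes CD45 on all leukocytes, had its nearest peak at 11.9, 10.2 and 16.7 kb. RUNX1 was the widest of the marked blood genes, with 4.59, 4.57 and 4.99 kb, and CD34 had 1.13, 1.10 and 1.21 kb. PAX5 was marked through a domain of 2.88, 2.2 and 3.05 kb lying upstream of its start. Of 20 endothelial genes 5 were marked, among them the receptor KDR with 1.3 ± 0.0630 kb, and 14 were unmarked.

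Epithelial genes fell in both classes. Of 36 genes, 11 were marked (median 1.87 kb) and 22 were unmarked, against 68% and 28% of all promoters. CDH1, the E-cadherin of epithelial junctions, had its nearest peak at 84.4, 84.9 and 83.4 kb, and CDH3, CLDN3, CLDN7, KRT7 and KRT19 were unmarked too. CDH2, the N-cadherin of mesenchymal cells, carried 7.36 ± 0.531 kb. LAMB3, a laminin chain of basement membranes, had 6.26, 6.87 and 6.5 kb, but at a low summit fold of 5.71. The simple epithelial keratin KRT18 had 3.87, 4.68 and 4.07 kb. KRT10 had no peak in the window in the 3 lists, with the nearest at 2.15, 2.12 and 2.15 kb, yet 13 of the other 15 lists held a peak in it.

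Of 40 neuronal and glial genes 24 were marked (60.0%, against 68% of all promoters) and 14 unmarked. The share marked was the largest among the lineage lists after the mesenchymal one. The marked genes had a median width of 1.44 kb. The tubulin gene TUBB3 had 5.06, 5.23 and 5.55 kb and the synaptic vesicle gene SNAP25 3.25, 3.13 and 3.6 kb. NEUROD1, a neuronal transcription factor, had 0.431 ± 0.154 kb. Potassium channel genes, used mostly in nerve and muscle, were alike, with 58 of 95 marked at a median of 1.65 kb. Of 34 muscle and heart genes 8 were marked, among them the regulators MYOD1 (1.54 ± 0.0829 kb) and NKX2-5 (1.80, 1.72 and 2.48 kb). The contractile genes MYH7 and TTN and the muscle gene CKM had no peak in any list. Of other contractile genes, ACTC1 and MYL2 had a peak in 2 lists, and ACTA1 and TNNT2 in 1. Of 34 hepatocyte and gut genes 7 were marked, among them FOXA2 (2.75, 2.44 and 2.68 kb), and ALB had its nearest peak 33.6, 38.1 and 34.3 kb away. Of the 8 marked muscle genes 7 encode transcription factors or a co-activator and RYR2 a calcium release channel, a grouping made after their values were seen. The regulators MYOG, MYF5, MYF6, HAND1 and PAX3 were unmarked.

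**Figure D4:**
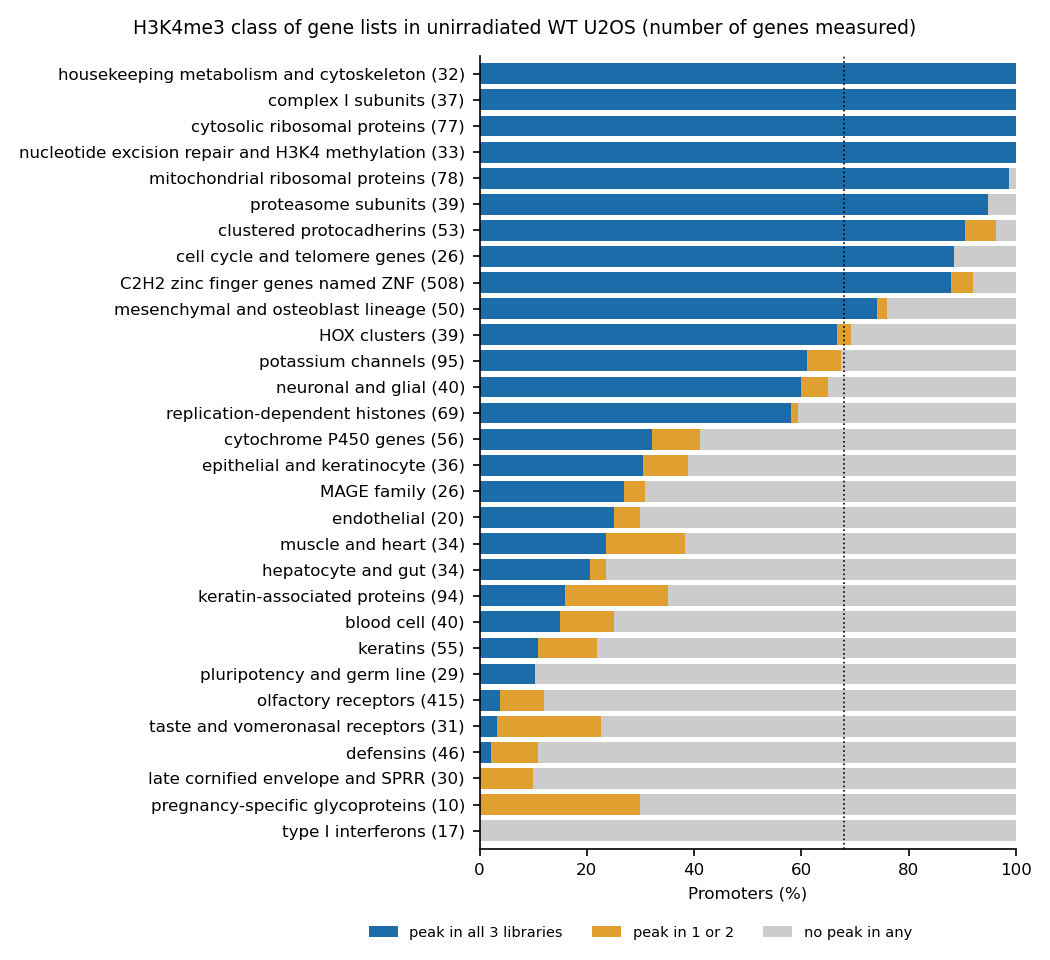
Percent of the promoters of each of 30 gene lists (y axis, number of genes in parentheses) with a peak in all 3 WT lists, in 1 or 2, or in none (stacked bars, x axis in percent), with a dotted line at the 68% of all promoters. Housekeeping, complex I, ribosomal and repair genes are all or nearly all marked, the mesenchymal list has 37 of 50 marked, and the olfactory receptors 16 of 415.

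Pluripotency and germ line genes were marked in 3 of 29 cases and unmarked in 26, against 68% and 28% of all promoters. SOX2 was the exception in width as well, with 8.22, 7.98 and 7.62 kb (7.94 ± 0.302 kb), while POU5F1 and NANOG had no peak, the nearest to NANOG lying 45.2, 45.3 and 44.6 kb away. DPPA2 and TDRD5 were the other marked members. Of the 12 CpG-rich promoters in this list, 10 were unmarked. In the MAGE family, whose members are normally restricted to testis, 7 of 26 genes were marked and 18 unmarked. MAGEA1 had 5.43, 5.12 and 5.39 kb at a summit fold of 17.7 ± 4.15, above the upper quartile of 11.7, although its CpG ratio was 0.27. MAGEA4 had 2.17, 2.17 and 2.40 kb at a fold of 14.9. MAGEA2, MAGEA3 and MAGEA6 were unmarked. They are near-identical copies, and with a mapping quality minimum of 30 lack of the mark and lack of uniquely mapped reads cannot be told apart there.

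Cell cycle and telomere genes were marked in 23 of 26 cases (median 3.43 kb), against 68% of all promoters. Of their promoters 22 were CpG-rich, and 19 of these were marked, against 90.1% of all CpG-rich promoters. CDKN1B had 13.7, 11.7 and 13.3 kb, CDK6 10.1, 10.6 and 10.5 kb and CCND1 7.50, 7.28 and 8.07 kb. These genes encode a cyclin-dependent kinase inhibitor, a G1 kinase and its cyclin. MYC had 7.15, 6.81 and 8.48 kb. The 3 unmarked genes were CDKN2A, CDKN2B and TERT, all with CpG-rich promoters. The nearest peak to the CDKN2A start site lay 93.8, 4.83 and 4.29 kb away, and another of its start sites was marked in 2 lists. For CDKN2B it was 107, 22.1 and 22 kb, far in replicate 1 in both cases. For TERT it was 20.8, 15.8 and 15.8 kb, and 4 of the other 15 lists held a peak in its window.

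HOX genes set segment identity along the embryo, and 26 of 39 were marked (66.7%, about the 68% of all promoters; median width 2.76 kb) and 12 unmarked. The HOXA cluster had 10 of 11 marked with HOXA2 the exception, HOXC 7 of 9, HOXB 5 of 10 and HOXD 4 of 9, and the differences between clusters were not tested. HOXC13 had 4.94, 5.13 and 5.51 kb. Clustered protocadherins, single-promoter adhesion genes of neurons, were marked in 48 of 53 cases, in 14 of 15 PCDHA, 15 of 16 PCDHB and 19 of 22 PCDHG genes. Their domains were narrow, with a median of 1.37 kb and none above 5.15 kb. PCDHGA5 was the widest by mean, with 2.37, 6.81 and 2.64 kb, through replicate 2, and PCDHGC3 had 3.47, 3.93 and 3.30 kb.

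Of 69 replication-dependent histone genes 40 were marked (58.0%, against 68% of all promoters) with a median width of 4.38 kb, and 28 had no peak. By class, 3 of 6 H1, 13 of 17 H2A, 10 of 18 H2B, 5 of 13 H3 and 9 of 15 H4 genes were marked. The median distance to the next start site was 245 bp for H2A and 245.5 bp for H2B genes. Neighbouring histone genes can thus share 1 domain, and their counts and widths are not separate observations. H2BC4 had 10.4, 8.33 and 10.7 kb. The unmarked ones included the duplicated pairs H3C14 and H3C15 and H4C14 and H4C15. Whether reads from such copies passed the mapping quality minimum was not tested. Zinc finger genes, a family in which many members repress transposons, were marked in 446 of 508 cases with a median of 2.54 kb, and 49 were above 5.15 kb.

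Families used mainly in sensory, barrier or reproductive tissues had few promoters marked in all 3 lists, against 68% of all promoters. Almost all promoters of the families in this paragraph were CpG-poor, with 1 CpG-rich promoter among the olfactory receptors. Of all CpG-poor promoters 34.8% were marked. The median CpG ratios of these families, 0.113 to 0.190, fall in the lowest of the 10 bins of this ratio, where 7.96% were marked and 82.1% unmarked. The part of CpG content in the low counts was not tested. Of 415 olfactory receptor genes 16 were marked and 365 had no peak in any list, and the marked ones had a median width of 0.782 kb. OR1F1 had 2.55, 2.09 and 2.97 kb, OR3A2 1.94, 1.71 and 2.01 kb and OR52N2 1.13, 1.07 and 1.21 kb at a fold of 10.6. On chromosome 11, 7 of 178 receptor genes were marked. The OR10A2 promoter printed above, with 1 CG and a TATAAA, is one of the unmarked receptors. Taste and vomeronasal receptors had 1 of 31 marked, 24 unmarked and 6 with a peak in 1 or 2 lists. Late cornified envelope and SPRR genes had 0 of 30 marked and 27 unmarked, and defensins 1 of 46 and 41. The 17 type I interferon genes, induced in virus infection, were all unmarked. Of 10 pregnancy-specific glycoprotein genes none was marked, 7 were unmarked and 3 had a peak in 1 or 2 lists. Many members of these families are close copies of each other, and the share lost to read mapping was not tested.

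Keratins were marked in 6 of 55 cases and unmarked in 43, against 68% marked over all promoters and 34.8% over CpG-poor ones. Their median CpG ratio of 0.269 falls in the bin from 0.194 to 0.307, where 15.2% were marked. KRT80 had 5.59, 5.34 and 11.7 kb, longest in replicate 3, and KRT17 3.81, 4.89 and 4.26 kb. Keratin-associated proteins of hair were marked in 15 of 94 cases, and 9 of the 15 lay among the 16 genes of the KRTAP10 and KRTAP12 groups, with a low median fold of 3.43. The median CpG ratio of the 94 genes was 0.182, in the lowest bin, where 7.96% were marked. Cytochrome P450 genes had 18 of 56 marked, among them CYP51A1 of sterol synthesis, while the liver enzyme gene CYP3A4 had no peak.

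The marked set and its widths were then compared with the other groups. Both comparisons below use the same 3 unirradiated WT libraries. A peak touched the window of 13917, 13760 and 14173 promoters in unirradiated WT cells (13950 ± 208) and of 13953, 13813 and 14028 in unirradiated ASH1L-/- cells (13931 ± 109). The groups overlapped, and the difference of 18.7 promoters gave p = 1 in an exact two-sided permutation test, whose smallest p with 3 against 3 libraries is 0.1. When only peaks with a fold of at least 5 were counted, WT exceeded ASH1L-/- by 1895 promoters (exact permutation p = 0.1). The median fold of promoter peaks was 5.37 to 5.77 in the ASH1L-/- lists and 6.17 to 8.87 in the WT lists. Over the 13339 promoters marked in all 18 lists the median domain measured 2.62, 2.50 and 2.88 kb in WT (2.66 ± 0.194 kb) and 2.85, 2.74 and 2.93 kb in ASH1L-/- cells (2.84 ± 0.0938 kb). The difference of -0.179 kb was within the overlap of the groups (exact permutation p = 0.3, adjusted 0.36).

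Irradiated WT libraries had more promoters with a peak. The counts were 14364, 14298 and 14420 at 1 h and 14438, 14229 and 14464 at 3 h (14369 ± 90.6 over 6 libraries). All 6 were above the highest unirradiated count of 14173. The difference of 419 promoters had an exact permutation p of 0.0119, the smallest that 6 against 3 libraries allow, and 0.0714 after adjustment over 6 tests, which missed 0.05. The median width was 2.96, 3.08 and 3.05 kb at 1 h and 2.96, 2.85 and 3.07 kb at 3 h (2.99 ± 0.0877 kb), 0.329 kb above unirradiated WT (exact permutation p = 0.0238, adjusted 0.0714), with the lowest irradiated library below the widest unirradiated library. The irradiated lists also held 106413 to 142688 peaks over 97.2 to 132 Mb with a median promoter fold of 8.41 to 13.8, against 91762 to 122482 peaks over 70.1 to 93.3 Mb in the unirradiated ones. The part of these values in the difference was not tested.

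**Figure D5:**
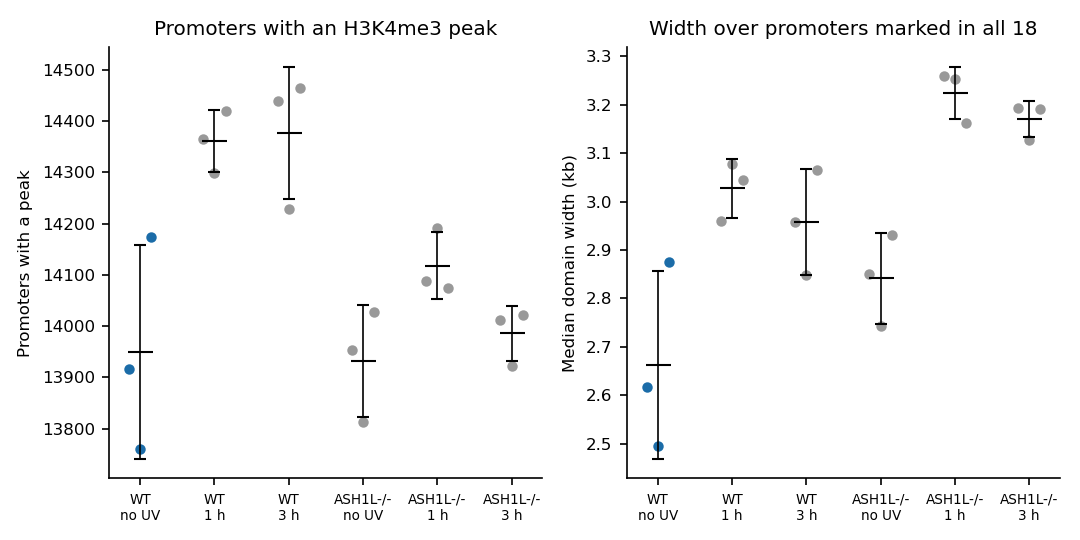
Promoters with an H3K4me3 peak (left, count, axis not from 0) and median width in kb over the promoters marked in all 18 lists (right), with 1 point per library in each of the 6 groups and the group mean and SD as bars. The unirradiated WT libraries (blue) span 13760 to 14173 promoters, a range that holds the 3 unirradiated ASH1L-/- libraries and lies below all 6 irradiated WT libraries.

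XPC, the sensor that starts global-genome repair, gave a readout that had no part in choosing the classes. The 4 unirradiated WT XPC libraries were lists of exactly 500000 peaks each, with a lowest −log10 p of 1.19 to 1.43. Whether the lists were limited to that number is not given in the sources used here. XPC peaks covered 56.1%, 24.1%, 39.9% and 12% of the bases in marked windows and 17.2%, 13.7%, 21.2% and 9.11% of those in unmarked windows. The marked class was higher in 4 of 4 libraries, by 38.9, 10.4, 18.7 and 2.85 percentage points (mean 17.7 ± 15.5). The exact two-sided sign-flip test gave p = 0.13, the smallest that 4 libraries allow (adjusted 0.25). With only peaks of a −log10 p of at least 2, the marked windows were covered at 39.4%, 0.505%, 1.87% and 0.426%, and the difference was 36.2, 0.126, 1.20 and 0.0719 percentage points, so that its size rested on replicate 1.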

How the data were processed

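Peak lists were taken as deposited. For each library the authors trimmed single-end reads with Trim Galore 0.6.5, mapped them to hg38 (chromosome Y left out) using BWA 0.7.17-r1188, kept a mapping quality of at least 30 and removed duplicates, using SAMtools 1.7 and Picard. With MACS2 2.2.7.1 and a stated threshold of 0.01 on p they called narrow H3K4me3 peaks against pooled input, and broad XPC peaks against XPC immunoprecipitates of XPC-/- cells. The deposited columns used were peak positions, fold enrichment over control as a ratio, −log10 p, −log10 q and the summit.

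Start sites were those of MANE Select (19016) or Ensembl canonical (946) transcripts in GENCODE 44, whose build is that of the peak lists. A library marked a promoter when a peak touched its window of 2000 bases on either side. Peaks closer than 500 bases were joined into domains. CpG ratios were taken over 500 bases on either side. Medians per library were compared by exact permutation or sign-flip tests with Benjamini-Hochberg adjustment over 6 tests (Python 3.11.15, SciPy 1.17.1, pandas 2.3.3). Interval code was tested on simulated data. The genes named were the 12 widest, 6 narrowest and 8 highest by fold, up to 4 marked and 4 unmarked members per list, and fixed reference genes. Others named as members of a list carry no test. The promoter classes and gene lists were chosen with earlier results of these data known. Alternatives changed the window, joining distance, peak threshold, start sites and libraries used. A few genes that met the naming rule are not reported here.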

Additional observations from a re-analysis of the deposited data

Results flagged for a closer look

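The values of 1 XPC library stood apart from those of the other 3 unirradiated WT XPC libraries under the stricter peak threshold. With XPC peaks of a −log10 p of at least 2, replicate 1 had 39.4% of the bases in marked windows under a peak, and the next highest library had 1.87%. In the unmarked windows it had 3.22%, and the difference between the classes was 36.2 percentage points. For each of these 3 values the gap between replicate 1 and its nearest neighbour, divided by the range of the 4 libraries, exceeded Dixon's critical value for a group of 4. Chance alone flags about 1 in 20 groups by this measure, and the 3 values come from the same library and are not independent. The authors report more mapped reads for that library than for the others, and the part of read depth was not tested.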

How the results depend on the processing

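Of 97 recomputed values under alternative settings, 86 were counted as the same. Class counts were counted so within a factor of 1.5, which is a wide limit. Widths and extents were counted so when they moved by less than the replicate spread. Differences were counted so when they kept their direction and their side of the threshold, whatever their size. Without joining of neighbouring peaks the median width was 2.23 kb, the upstream extent 0.717 kb and the downstream extent 1.55 kb, and at isolated promoters the upstream extent was 0.823 kb. The marked class ranged from 11040 promoters (fold of at least 5) to 13830 (every annotated start site) and the unmarked class from 4932 to 7009. Leaving out 1 library at a time gave a width of 2.53 to 2.70 kb, an upstream extent of 0.883 to 0.912 kb, a downstream extent of 1.60 to 1.69 kb, a difference between them of 0.711 to 0.758 kb and an XPC difference of 10.7 to 22.7 points, lowest without replicate 1. The WT against ASH1L-/- difference in marked promoters ranged from -92.8 (without WT replicate 3) to 114, and was -40.5 without ASH1L-/- replicate 2. It was 1895 at a fold of at least 5, which was counted as the same although the size changed greatly. The width difference ranged from -0.285 to -0.095 kb. Against irradiated WT the count difference ranged from 324 to 530.3 and the width difference from 0.245 (without WT replicate 2) to 0.435 kb. It was 0.306 kb without WT replicate 1, and both omissions gave an exact permutation p of 0.0714. At a fold of at least 5 the count difference was 755 (exact permutation p = 0.0714).

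Replicate numbers are shared between groups. In a fit blocked on replicate number, the irradiated differences were 419 ± 130 promoters and 0.329 ± 0.144 kb (exact sign-flip p = 0.25 for both, the smallest possible), and the ASH1L-/- differences 18.7 promoters and -0.179 kb (exact p = 1 and 0.25). Deviations of same-numbered libraries correlated at 0.0317 to 0.286, with 5 of 9 pairs over 0.1. Since 4 were not, the numbers were not taken to pair the libraries, although 7 of 9 correlated best with their own number, a hint from the data and not from the design. Reads per library are not in the lists but are reported by the authors, and no result was adjusted for them. The width of weak domains is limited by the peak calls.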

Other observations

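Long noncoding RNA start sites more than 10 kb from any protein-coding start site were marked in all 3 unirradiated WT lists in 2132 of 13228 cases (16.1%). Of those within 10 kb, 3528 of 5528 (63.8%) were marked, and of protein-coding promoters 68%. Along the chromosomes, the longest run of neighbouring marked promoters held 43 genes over 4.17 Mb of chromosome 12, from SPRING1 to SPPL3. On chromosome 11 a run of 36 unmarked genes over 0.845 Mb, from OR51E1 to OR52D1, included 29 olfactory receptors. On chromosome 4 a run of 29 unmarked genes over 1.85 Mb went from UGT2B10 to JCHAIN, and on chromosome 1 a run of 26 contained PRAMEF12 to PRAMEF20, whose members are close copies of each other.

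The share of promoters marked was lowest on chromosome X (56.5%), 21 (59.5%) and 11 (59.7%), and highest on 18 (76.3%), 14 (75.6%) and 15 (75.2%). Without olfactory receptor, keratin-associated protein and defensin genes chromosome 11 had 69.0%, chromosome 21 had 69.6% and X had 56.5%. Neighbour distance moved with the mark as well. The window of 2 kb on either side takes in a neighbouring start site under 2 kb away, so that 1 peak can mark both. With the next protein-coding start site less than 500 bp away 91.6% of 2424 promoters were marked. At 500 to 1000 bp it was 93.5%, and at 1000 to 2000 bp 81.6%. The 3 distance classes from 2 to 50 kb had 56.2% to 59.5%, and with the neighbour more than 50 kb away 71.1% of 6635 were marked.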
